A study of Homo sapiens with 6 samples.

Results

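The constitutive proteasome genes were taken from the RNA-seq table as every gene whose name is PSM, one letter from A to G and a number, with PSMB8, PSMB9 and PSMB10 left out. This rule found 45 of the 26255 genes listed. They encode the alpha and beta rings of the 20S core, the base and the lid of the 19S regulatory particle, the assembly chaperones, the alternative activators and 1 inhibitor. PSMA8, a testis form of an alpha subunit, was at 0 FPKM in all 6 libraries. PSMB11, the thymus form of a beta subunit, was at 0 in 5 libraries and at 0.067 FPKM in shEphexin1 replicate 1. The other 43 genes passed the filter on low values and were tested. FPKM is fragments per kilobase of transcript, here scaled between libraries by the geometric normalization of Cuffdiff. Summed over all genes, it ran from 516079 in shEphexin1 replicate 2 to 651441 in shControl replicate 3.

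The 26S proteasome degrades proteins that carry ubiquitin chains. Its barrel-shaped 20S core holds the proteolytic sites inside the beta rings, and the alpha rings control entry. The 19S base unfolds the substrate with a ring of ATPases and feeds it into the core, while the lid removes ubiquitin. Dedicated chaperones, which are not part of the finished particle, guide assembly. Because subunits are needed in fixed proportions, their genes are known to be transcribed together, largely under the factor NFE2L1.

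Total RNA was sequenced from NCI-H1299, a human lung cancer line, carrying a control shRNA (shControl, 3 libraries) or an shRNA against Ephexin1 (shEphexin1, 3 libraries). Ephexin1, the product of NGEF, is a guanine nucleotide exchange factor. The labels name the pSilencer2.1-U6-neo vector, whereas the methods of the study name its hygromycin version and describe stably selected clones, so each group may come from 1 clone, and clone and shRNA cannot be told apart. The study says in general that its experiments were repeated, but no source names separate cultures for these libraries. The p-values therefore measure only the spread between these libraries.

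NGEF measured 13.3, 11.7 and 16.4 FPKM in shControl replicates 1 to 3 and 9.81, 8.25 and 10.5 FPKM in those of shEphexin1. The groups did not overlap (log2 fold change -0.53, adjusted p = 0.10 by limma, 0.0028 with the replicate number as a block). Of the markers checked, KRT18 (36.3 to 109 FPKM) and VIM (1979 to 2670 FPKM) were well expressed, KRT8 was at 2.65 to 8.44 FPKM, and EPCAM reached no more than 0.22 FPKM. CDH1, the lung factor NKX2-1 and the leukocyte gene PTPRC were at 0 throughout, SFTPC was at 0 in all but 1 library, and the fibroblast gene COL1A1 stayed at or below 0.39 FPKM. In replicate 2 of both groups, deviations of log2 FPKM from the group mean ran against GC content (Spearman's rho across genes -0.80 and -0.87). In the other 4 libraries rho lay between 0.43 and 0.80. Deviations cancel within a group, so the signs of its libraries are not independent. The depth is unknown, because the values are FPKM without counts.

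Most proteasome genes were slightly lower in shEphexin1. The fitted log2 fold change was negative for 40 of the 43 genes tested, with a median of -0.22. The positive values were those of PSMC2, PSME2 and PSME3. No gene passed the rule of an adjusted p of at most 0.025 with a 2-fold change, which 1.89% of all genes tested passed. At an adjusted p of at most 0.05 without a fold threshold, 3 of 43 fell (PSMA2, PSMA7 and PSMF1) and none rose, against 7.01% of all genes (4.32% lower and 2.69% higher). That share is near the background. At an unadjusted p of at most 0.05 there were 10 of 43, against 23.3% of all genes. No source used here says that the replicate numbers pair the libraries, and the pairing was taken from correlations in these data. With the replicate as a block 28 genes fell and 1 rose, while 33.5% of all genes passed, 19.7% lower and 13.8% higher. In all 3 replicate pairs, 33 genes were lower (33% of all genes) and 2 were higher (29.2%). For 12 genes the groups were apart (28.3% of all genes), with 11 lower in shEphexin1 (15.4%) and 1 higher (12.8%). That split was 6 lower and 4 higher after quantile normalization and 6 and 2 after rescaling to a common sum.

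**Figure D1:**
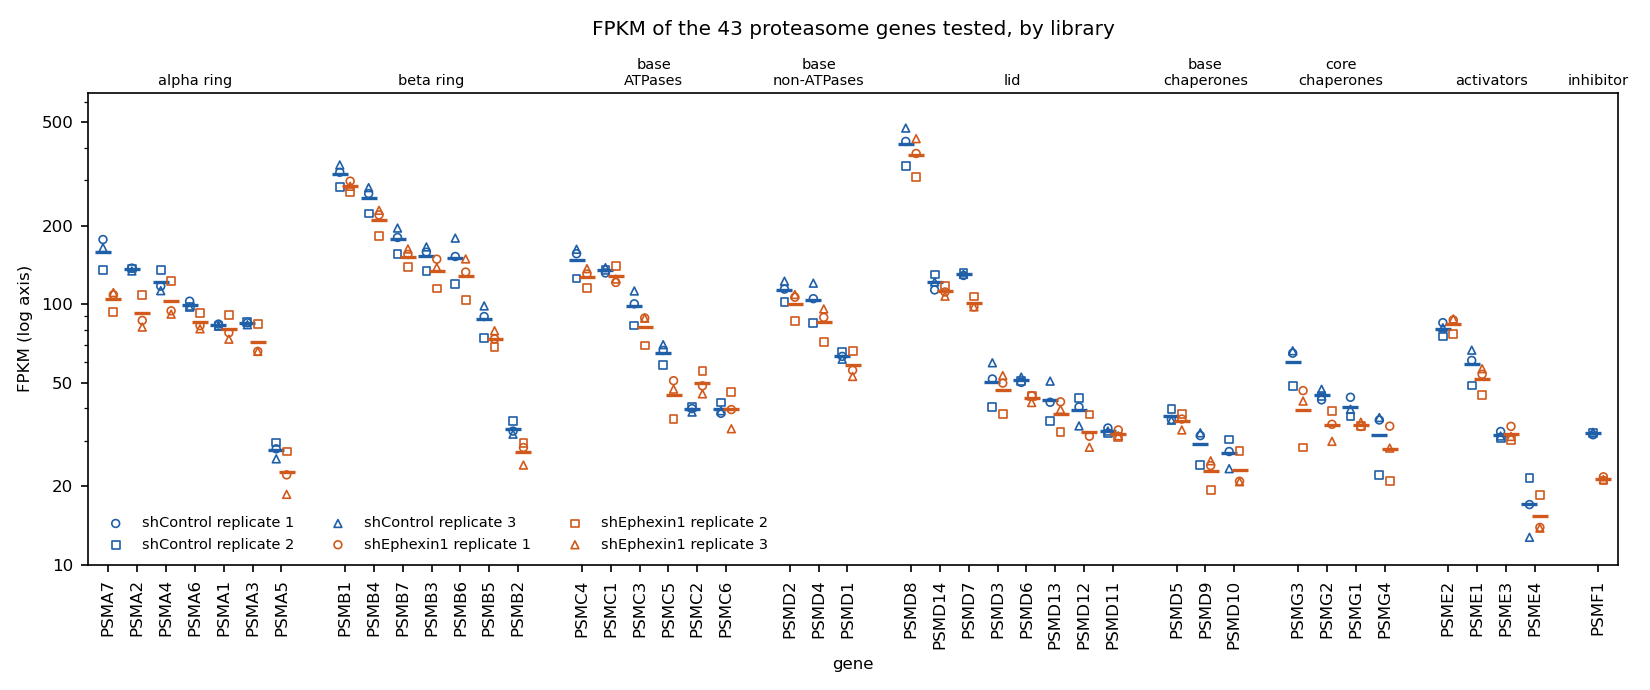
FPKM of the 43 proteasome genes tested (log axis) in each library, ordered by structural group and, within a group, by mean level. Blue symbols are shControl and orange symbols shEphexin1, shapes give the replicate number and dashes the group mean; mean shControl levels run from 17.1 FPKM (PSME4) to 413 FPKM (PSMD8).

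Proteasome genes are abundant, and abundant genes as a class were lower in shEphexin1. Over the 1400 other genes at a mean of 50 FPKM or more, the median was -0.18 on the log2 scale, 73.5% were negative and 52.5% were lower with the replicate block. The 24 proteasome genes at that level had a median of -0.22, with 23 negative and 18 lower with the block. At 100 FPKM or more, 657 other genes had a median of -0.25 and 14 proteasome genes one of -0.21. Between 20 and 50 FPKM, 2370 other genes had a median of -0.066 and 18 proteasome genes one of -0.22, with 16 of the 18 negative.

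The size of the shift depended on how the libraries were put on one scale. After quantile normalization the median of the proteasome genes was -0.099, with 32 of 43 negative, against 49.6% of all genes. With the replicate block on those values, 13 fell and 3 rose, while 31.6% of all genes passed. Rescaling each library to a common sum of FPKM moved the median of all genes to 0.13 and that of the proteasome genes to -0.073. On that scale and with the block, 8 fell and 2 rose, while 36.1% of all genes passed. In all, 8 of 43 genes passed with the block on the deposited scale and under median centring, quantile normalization and the common sum, against 23.4% of all genes, so the count itself is no result about the proteasome genes. These were PSMA2, PSMA7, PSMC5, PSMD7, PSMD9, PSMG3 and PSMF1, all lower, and PSMC2, higher. They are described in more detail than the rest.

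**Figure D2:**
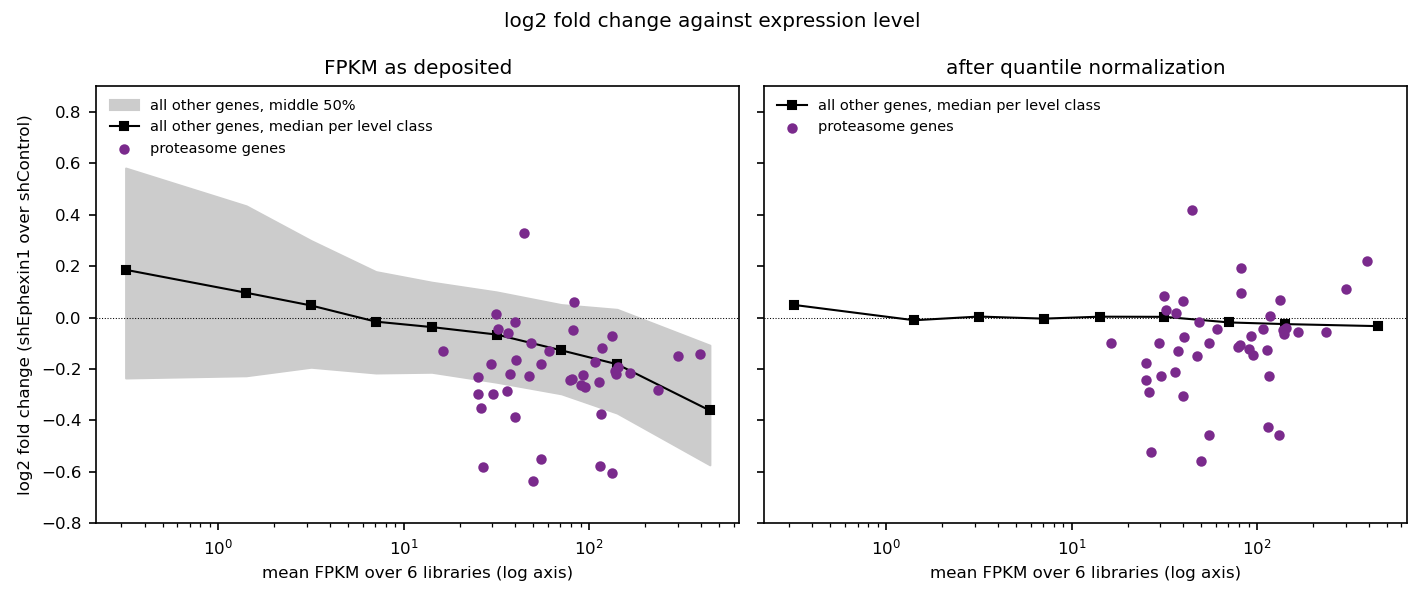
Log2 fold change (shEphexin1 over shControl) against mean FPKM on a log axis, for the deposited values (left) and after quantile normalization (right). Squares are medians of all other genes per level class, the grey band their middle 50% and purple points the proteasome genes; in the highest class, from 200 to 1000 FPKM, the median of other genes is -0.36 as deposited and -0.03 after normalization.

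Promoter sequences bear on the group because its genes are known to share antioxidant response elements and CCAAT boxes. The sequences below lie directly upstream of the annotated starts of PSMA2, PSMC5 and PSMD9, which fell with the block, and of PSMC2, which rose. They are from RefSeq on GRCh38.p14, read 5′ to 3′ on the strand of the gene. Capitals mark TGACNNNGC, the core of the element that NFE2L1 and NFE2L2 bind, and CCAAT, each searched on both strands. The stretches end 1 base before the start, except that of PSMD9, which spans 160 to 51 bases upstream.
PSMA2 (chr7:42932175-42932284, minus strand): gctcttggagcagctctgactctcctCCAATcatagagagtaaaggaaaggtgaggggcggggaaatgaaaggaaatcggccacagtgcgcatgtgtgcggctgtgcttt
PSMC5 (chr17:63827321-63827430, plus strand): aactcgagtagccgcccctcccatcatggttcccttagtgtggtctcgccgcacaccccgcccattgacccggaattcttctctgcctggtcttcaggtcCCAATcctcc
PSMC2 (chr7:103347533-103347642, plus strand): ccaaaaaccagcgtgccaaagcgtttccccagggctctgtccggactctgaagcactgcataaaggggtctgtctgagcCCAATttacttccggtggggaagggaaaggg
PSMD9 (chr12:121888630-121888739, plus strand): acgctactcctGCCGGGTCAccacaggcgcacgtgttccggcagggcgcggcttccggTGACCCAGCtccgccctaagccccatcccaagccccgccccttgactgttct

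PSMA2 had a CCAAT 84 bases upstream, PSMC5 one at 10 and PSMC2 one at 31, and PSMD9 had TGACNNNGC at 149 and at 102 bases upstream, on opposite strands. PSMC5 also had TGACNNNGC 57 bases before another annotated start. In windows from 250 bases before to 50 after the start, 39 of the 45 genes had an entry. TGACNNNGC was found for 14 of the 39, or 35.9%, against 16.1% of 27305 genes in the table. CCAAT was found for 19 of the 39, or 48.7%, against 39.7%. PSMC2, which rose with the block, and PSMA2, which fell, both had a CCAAT. PSMF1 had neither motif. PSMA7 and PSMG3 had no entry.

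In the alpha ring, which gates the core, all 7 genes tested had negative values (median -0.25), 2 passed the test and 6 fell with the block. Of all genes, 7.01% passed the test and 19.7% were lower with the block, as were 52.5% of other genes at 50 FPKM or more. PSMA7 measured 178, 135 and 165 FPKM with the control shRNA and 109, 93.5 and 111 FPKM with the Ephexin1 shRNA. All 3 shEphexin1 values lay below the lowest control value. The log2 fold change was -0.60 ± 0.13 (SE, n = 3 and 3), with an adjusted p of 0.040 by limma and 0.00050 with the block. The gene encodes an alpha subunit that can also take the place of PSMA4 in an alternative core, and lies on chromosome 20q (chr20:60711789-60718496, GRCh37, minus strand). It was the most abundant alpha gene in shControl, where it made up 22.3% ± 2.70 (SD) of the summed alpha-ring FPKM, against 18.8% ± 3.29 in shEphexin1, shares that overlapped between the groups.

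PSMA2 measured 138, 137 and 134 FPKM with the control shRNA and 86.8, 108 and 81.8 FPKM with the Ephexin1 shRNA. The control values were nearly equal, and every shEphexin1 value was lower. Its log2 fold change was -0.58 ± 0.12, with an adjusted p of 0.038 by limma and 0.0028 with the block. PSMA2 lies on 7p (chr7:42956427-42971784, GRCh37, minus strand), where its exons overlap a read-through gene on the same strand, and 3 named pseudogenes carry its sequence, so reads could be shared. PSMA1 had the smallest log2 fold change of its ring, with 84.0, 82.6 and 82.7 FPKM under the control shRNA and 77.8, 90.8 and 73.5 FPKM under the Ephexin1 shRNA. Its difference from the other alpha genes was not tested. Those groups overlapped, and its log2 fold change of -0.048 (95% interval -0.30 to 0.21) turned positive under quantile normalization and the common sum. PSMA3, PSMA4, PSMA5 and PSMA6 had log2 fold changes from -0.30 to -0.22 and passed with the block but not without it.

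The beta ring, which carries the peptidase sites, had values within a narrow band. All 7 genes had values from -0.30 (PSMB2) to -0.15 (PSMB1), none passed the test without the block, and 6 fell with it. The share lower with the block was 19.7% over all genes and 52.5% over other genes at 50 FPKM or more. PSMB5, the chymotrypsin-like subunit, measured 89.8, 74.3 and 98.7 FPKM with the control shRNA and 73.7, 68.5 and 79.2 FPKM with the Ephexin1 shRNA. PSMB6, the caspase-like subunit, was at 153, 119 and 180 FPKM against 133, 104 and 150 FPKM. PSMB7, the trypsin-like subunit, was at 181, 156 and 196 FPKM against 156, 139 and 163 FPKM. In each of these the groups overlapped but every shEphexin1 library was below the control of the same number. Their log2 fold changes were -0.24, -0.22 and -0.22, with adjusted p of 0.33, 0.55 and 0.34 by limma and 0.015, 0.0069 and 0.0084 with the block. PSMB2 was the 1 beta gene whose groups did not overlap, at 32.6, 35.7 and 31.7 FPKM against 28.2, 29.3 and 24.1 FPKM (adjusted p = 0.18 by limma, 0.0087 with the block). PSMB1, the most abundant beta gene at 316 ± 31.1 FPKM (SD, n = 3) in shControl and 284 ± 13.9 in shEphexin1, did not pass either test (adjusted p = 0.46 by limma and 0.063 with the block), and its sign turned under quantile normalization.

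**Figure D3:**
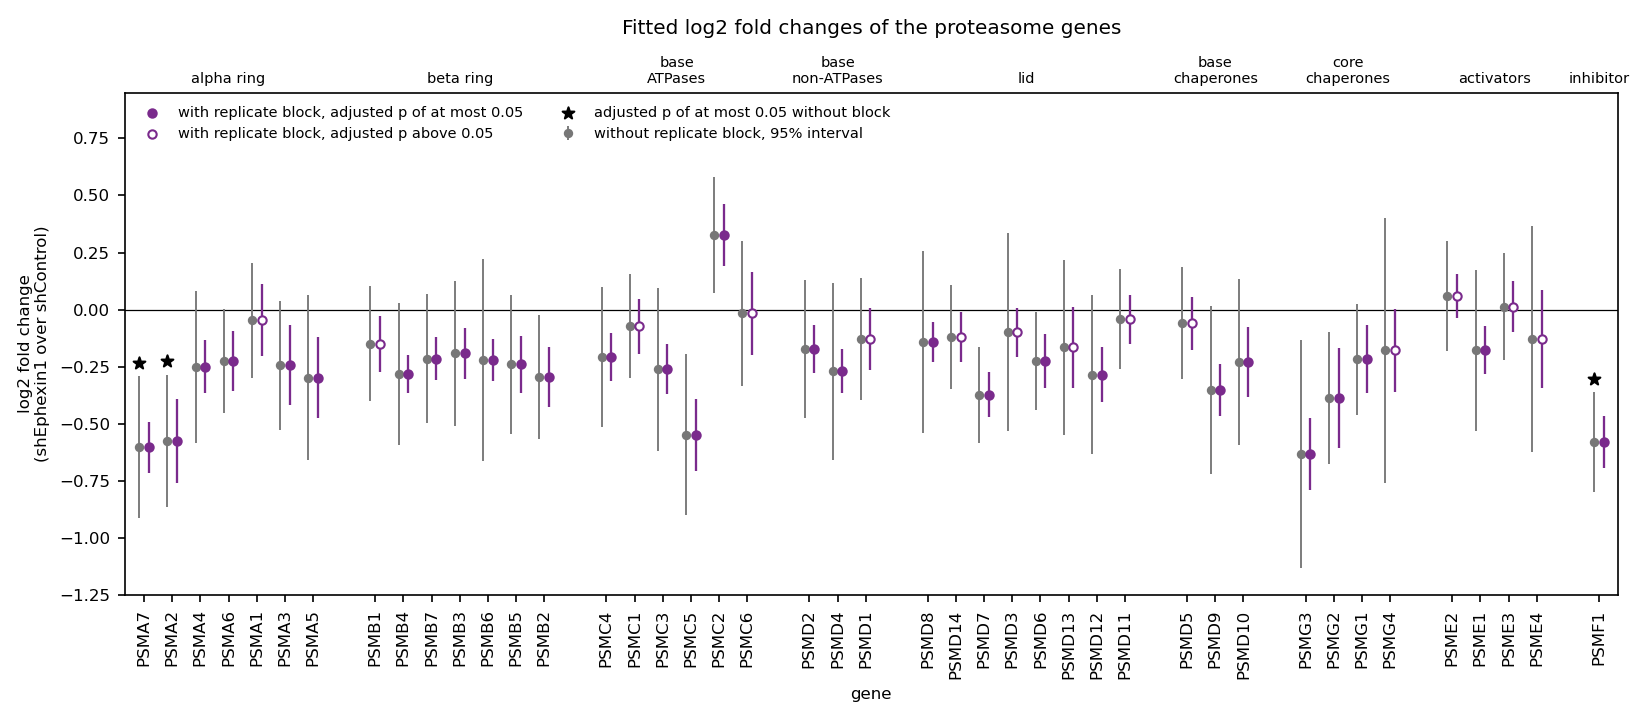
Fitted log2 fold changes (shEphexin1 over shControl) of the 43 genes by structural group, with 95% intervals from limma without the replicate block (grey) and with it (purple). Filled purple circles have an adjusted p of at most 0.05 with the block and stars mark the 3 genes that also pass without it; PSMC2 is the 1 gene whose blocked interval lies above 0.

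Among the 6 ATPases of the base, which unfold substrates, PSMC5 and PSMC2 went opposite ways. PSMC5 measured 66.5, 58.7 and 70.1 FPKM with the control shRNA and 50.9, 36.2 and 47.3 FPKM with the Ephexin1 shRNA. PSMC2 measured 39.8, 40.4 and 38.6 FPKM with the control shRNA and 48.7, 55.6 and 45.3 FPKM with the Ephexin1 shRNA. For both genes the groups were apart. The log2 fold change of PSMC5 was -0.55 ± 0.15 (adjusted p = 0.074 by limma, 0.0019 with the block) and that of PSMC2 was 0.33 ± 0.11 (adjusted p = 0.13 by limma, 0.0072 with the block). PSMC2 (chr7:102969017-103010793, GRCh37, plus strand) shares exonic sequence with PMPCB on the same strand, a mitochondrial peptidase gene whose own log2 fold change was 0.36. PSMC5 (chr17:61904512-61909386, GRCh37, plus strand) overlaps FTSJ3 on the opposite strand. The kit was stranded, but the strand setting used in counting is not given in the sources used here. PSMC3 and PSMC4 fell with the block (-0.26 and -0.21). PSMC1 (-0.073) and PSMC6 (-0.017) did not pass with the block and changed sign with the scaling, and PSMC1 has 13 named pseudogenes.

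The non-ATPase part of the base, which receives ubiquitin chains, had 3 genes, of which PSMD2 and PSMD4 fell with the block and PSMD1 did not (adjusted p = 0.12). PSMD4, a ubiquitin receptor, measured 105, 85.0 and 121 FPKM with the control shRNA and 89.2, 71.8 and 96.1 FPKM with the Ephexin1 shRNA, groups that overlapped. In the lid all 8 genes had negative values (median -0.15), none passed the test without the block and 4 fell with it. For base and lid alike, the share lower with the block was 19.7% over all genes. It was 39.3% over other genes at 20 FPKM or more and 52.5% at 50 FPKM or more. PSMD7, the partner of the lid's deubiquitinase, measured 129, 133 and 131 FPKM with the control shRNA and 97.8, 107 and 97.9 FPKM with the Ephexin1 shRNA. The groups lay well apart (log2 fold change -0.37 ± 0.09, adjusted p = 0.052 by limma, 0.0014 with the block). PSMD14, which encodes that deubiquitinase, had a value of -0.12 and did not pass with the block (adjusted p = 0.088). PSMD8, the most abundant of all at 413 ± 68.7 FPKM (SD, n = 3) against 374 ± 62.8, fell with the block (-0.14, adjusted p = 0.025), but rose with it after quantile normalization (0.22, adjusted p = 0.0050). PSMD11 had nearly equal groups, 32.7 ± 0.79 FPKM in shControl and 31.7 ± 1.05 in shEphexin1.

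The assembly chaperones, which hold intermediates together, had the lowest value in the set. PSMG3, which with PSMG4 helps to build the alpha ring, measured 65.0, 48.6 and 66.4 FPKM with the control shRNA and 46.7, 28.2 and 42.5 FPKM with the Ephexin1 shRNA. Its exons overlap PSMG3-AS1 on the opposite strand, which was at no more than 1.68 FPKM. Replicate 2 was lowest in both groups, and every shEphexin1 value was below every control value. The log2 fold change of PSMG3 was -0.63 ± 0.21 (adjusted p = 0.13 by limma, 0.0012 with the block). PSMG4 was at 36.0, 22.1 and 36.8 FPKM in shControl and between 21.01 and 34.1 FPKM in shEphexin1, and did not pass either test (adjusted p = 0.72 by limma, 0.11 with the block). PSMG1 and PSMG2, which act as a pair, fell with the block (-0.22 and -0.39). Among the chaperones of the base, PSMD9 was at 31.3, 24.2 and 32.1 FPKM against 24.0, 19.4 and 25.1 FPKM, and fell with the block (-0.35, adjusted p = 0.0030) but not without it (adjusted p = 0.24). PSMD5 did not pass either test (-0.060, adjusted p = 0.79 by limma).

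PSMF1, an inhibitor that binds the core, varied little within each group. It measured 31.6, 32.2 and 32.3 FPKM with the control shRNA and 21.8, 21.1 and 21.3 FPKM with the Ephexin1 shRNA. The spread within each group was far smaller than the gap between them. Its log2 fold change was -0.58 ± 0.09 (adjusted p = 0.016 by limma, 0.00063 with the block). The gene lies on 20p (chr20:1093883-1170059, GRCh37, plus strand). An exact permutation test of the 6 values gave p = 0.1 for PSMF1, PSMA2, PSMA7 and PSMC2, the smallest that 3 against 3 allows. Every gene whose groups do not overlap gets this value, so it adds nothing to that lack of overlap. The activators had smaller values. PSME2, a subunit of the interferon-inducible PA28 cap, measured 85.1, 75.3 and 81.3 FPKM with the control shRNA and 87.1, 76.9 and 88.0 FPKM with the Ephexin1 shRNA, groups that overlapped (0.059, 95% interval -0.18 to 0.30, adjusted p = 0.30 with the block). It was higher in all 3 pairs, and rose with the block after quantile normalization (0.19, adjusted p = 0.023) and after the common sum (0.21, adjusted p = 0.012). Its partner PSME1 fell with the block (-0.18, adjusted p = 0.023), whereas the nuclear cap PSME3 (0.012) and PSME4 (-0.13) did not pass.

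The 3 calls without the block did not hold when some libraries were left out, and not all of them held under other settings. All 3 were lost when shControl replicate 1 or 3 or shEphexin1 replicate 1 or 3 was left out. Without shControl replicate 2 the calls were PSMA7 and PSMF1, and without shEphexin1 replicate 2 they were PSMA2, PSMF1 and PSMD7, with PSMA7 lost (adjusted p = 0.061 by limma) and PSMD7 gained (0.039). With all 6 libraries, PSMA2 was lost under median centring (adjusted p = 0.052 by limma), quantile normalization (0.16) and the common sum (0.15). Under the common sum PSMA7 was the 1 call (0.038). Both PSMA2 and PSMA7 were lost without the trend (0.074 and 0.078) and without the filter (0.095 and 0.11). With replicates 1 and 3 alone, 12 genes fell, against 17.3% of all genes called. Replicate 2 was the lowest library of both groups for 22 genes, whose median GC content was 52.7%, and the highest of both for 13 genes, with a median of 40.3%. The part of GC content in the results was not tested beyond a correction for GC and length, with which 16 genes were called, against 29% of all genes.

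The proportions among the subunits were compared within libraries. Summed over the 14 core genes, FPKM was 1888 ± 141 (SD, n = 3) in shControl and 1573 ± 38.3 in shEphexin1, or 83.3%. The base came to 88.9%, the lid to 88.4% and the assembly chaperones to 80.5%. The summed FPKM of all genes came to 90.3%. As a share of that total, the core genes took 0.309%, 0.308% and 0.307% in shControl and 0.286%, 0.296% and 0.271% in shEphexin1. These shares did not overlap, and neither did those of the assembly chaperones (0.0432% to 0.0450% against 0.0365% to 0.0413%). The shares of the base and of the lid overlapped. After rescaling to a common sum the groups were apart for 28.9% of all single genes, and no such share was computed for sums of genes. When each gene was set against the median of the 43 genes in its library, 35 of the 43 overlapped between the groups. No share over all genes was computed on this relative scale. The 28.3% of all genes whose groups were apart was counted on the deposited scale. The count on the relative scale therefore has no background here, and no conclusion is drawn from it. Lower relative to that median were PSMA7, PSMF1, PSMA2, PSMG2 and PSMD7, and higher were PSMC2, PSMA1 and PSMC1.

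Several of these genes lie on chromosome arms whose median log2 fold change was shifted. The median log2 fold change of expressed genes was 0.30 on 7q (408 genes), where PSMC2 lies, and with it subtracted PSMC2 stood at 0.03. It was -0.25 on 7p (PSMA2 and PSMG3), -0.29 on 20p (PSMF1), -0.22 on 20q (PSMA7) and -0.21 on 17q (PSMC5). With the arm subtracted, PSMA2 stood at -0.33, PSMG3 at -0.39, PSMF1 at -0.30, PSMA7 at -0.38 and PSMC5 at -0.34. The other proteasome genes on 17q then stood at -0.08 (PSMD12), 0.02 (PSMB3), 0.11 (PSMD3), 0.17 (PSMD11) and 0.22 (PSME3). PSMD9, on 12q with an arm median of -0.17, went from -0.35 to -0.18. PSMG2, on 18p with an arm median of -0.46, went from -0.39 to 0.07. PSMD7, on 16q with an arm median of 0.02, stood at -0.37 before and -0.39 after. Over all 43 genes the median after subtraction was -0.18, with 35 negative. The part of the arms in the results was not tested.

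**Figure D4:**
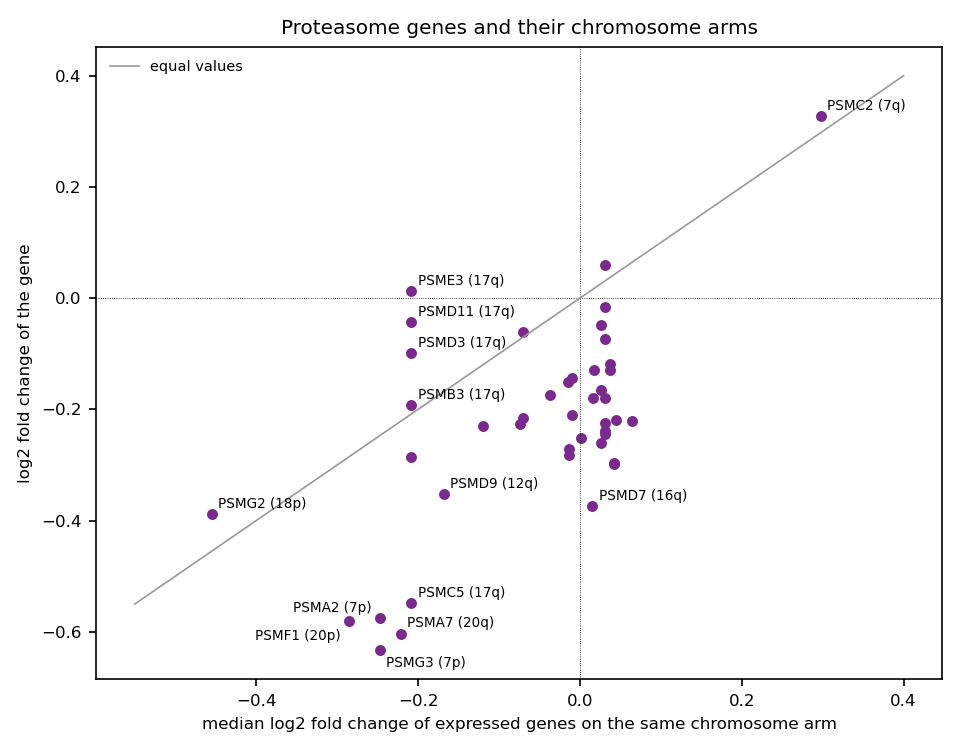
Log2 fold change of each proteasome gene (vertical) against the median log2 fold change of expressed genes on its chromosome arm (horizontal), with a grey line of equal values. PSMC2 lies on the line at an arm median of 0.30, and PSMD7 lies at -0.37 on an arm with a median of 0.02.

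The immunoproteasome subunits left out by the rule replace the constitutive catalytic subunits. Of the 3, PSMB9 rose, and PSMB8 rose with the block but not without it (0.36, adjusted p = 0.0030 and 0.22 by limma). PSMB10 did not pass either test (0.16, adjusted p = 0.28 with the block and 0.81 without it, by limma). PSMB9 measured 6.71, 4.95 and 4.18 FPKM with the control shRNA and 13.1, 10.2 and 14.6 FPKM with the Ephexin1 shRNA, and rose by 1.25 on the log2 scale (adjusted p = 0.019 by limma). Its ratio to PSMB6, which it replaces, was 0.0439, 0.0415 and 0.0233 in shControl and 0.0987, 0.0979 and 0.0976 in shEphexin1, a 2.71-fold difference of means without overlap. PSMB8 had a ratio to PSMB5 of 0.394 ± 0.0086 (SD, n = 3) against 0.599 ± 0.048, also without overlap. PSMB10 had a ratio to PSMB7 of 0.119 ± 0.035 against 0.152 ± 0.021, which overlapped. In exact permutation tests of the 3 ratios, p was 0.1, 0.1 and 0.2, and the smallest possible is 0.1, which groups without overlap always give. PSMB8 and PSMB9 overlap each other and PSMB8-AS1, which stood at 0.65 to 1.08 FPKM in shControl and 2.00 to 2.27 FPKM in shEphexin1, so reads could be shared. The call of PSMB9 was lost without shControl replicate 3 (adjusted p = 0.064) and without shEphexin1 replicate 1 (0.098) or 3 (0.071).

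**Figure D5:**
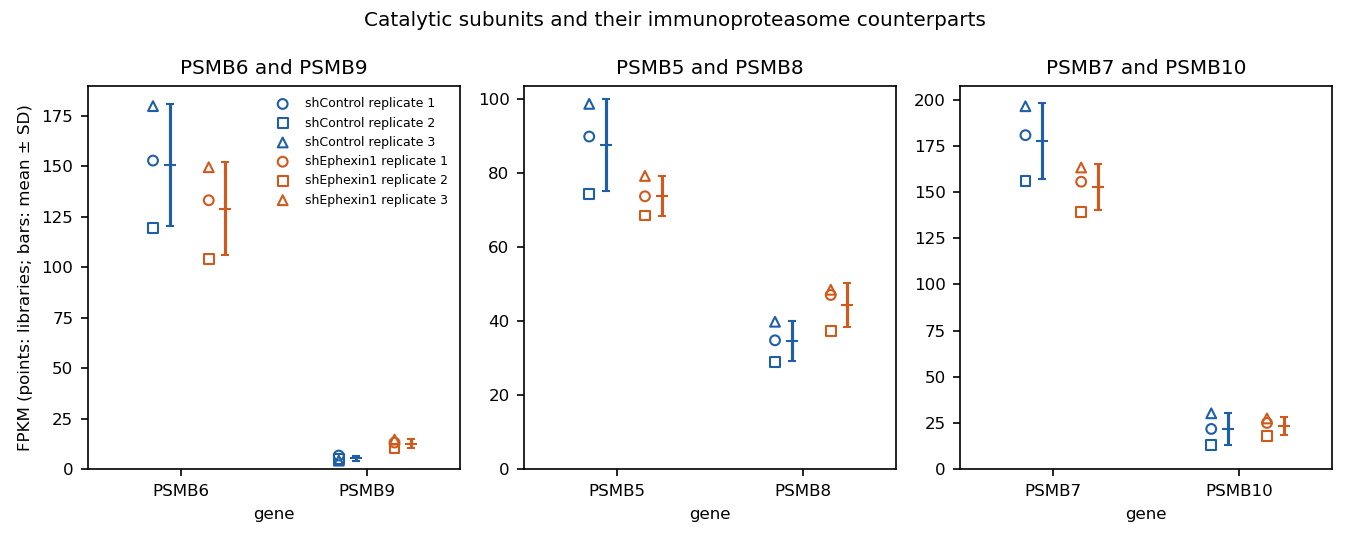
FPKM of the constitutive catalytic subunits PSMB6, PSMB5 and PSMB7 beside the immunoproteasome subunits that replace them, with each library as a point and mean ± SD as a bar. PSMB9 lies at 4.18 to 6.71 FPKM in shControl and 10.2 to 14.6 in shEphexin1, while PSMB10 overlaps between the groups.

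Among 29 further genes of the ubiquitin-proteasome pathway, 24 had negative values (median -0.17), 2 passed the test without the block, a share near the 7.01% of all genes, and 15 fell and 2 rose with it, against 33.5%. RAD23B, a shuttle that brings ubiquitinated proteins to the proteasome, measured 89.0, 91.8 and 89.0 FPKM with the control shRNA and 64.4, 66.9 and 57.6 FPKM with the Ephexin1 shRNA. TXNL1, a thioredoxin-like protein that binds the 19S particle, was at 61.7, 59.4 and 57.9 FPKM against 39.9, 46.4 and 39.5 FPKM. Both fell without overlap (-0.52, adjusted p = 0.027, and -0.51, adjusted p = 0.034, by limma), and TXNL1 lies on 18q, where the arm median was -0.44 and subtracting it left -0.070. NFE2L1, the transcription factor of the proteasome genes, measured 50.6, 41.6 and 57.2 FPKM with the control shRNA and 37.4, 29.4 and 40.7 FPKM with the Ephexin1 shRNA. Its groups did not overlap, and it fell with the block but not without it (-0.47, adjusted p = 0.00082 and 0.14 by limma). With the median of its arm, 17q, subtracted it stood at -0.27. NFE2L2 went the other way, rising with the block but not without it (0.17, adjusted p = 0.030 and 0.56 by limma), in groups that overlapped. The other regulators looked at, NGLY1 (-0.077) and DDI2 (-0.17), did not pass either test.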

How the data were processed

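RNA-seq was run on 6 libraries of NCI-H1299 cells, 3 shControl and 3 shEphexin1. Per the methods and the submitters' processing notes, the authors mapped reads to GRCh37/hg19 with TopHat2 2.0.13 (with Bowtie, after bcl2fastq 2.20) and computed the deposited FPKM values with Cuffdiff of Cufflinks 2.2.1, with geometric library normalization. The annotation and strand setting are not given in the sources used here. Columns were assigned by library name, and 0 were left out. The authors' fold changes and p-values were not used. The depth is unknown, so no counting interval is given.

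Values were tested as log2(FPKM + 0.1) for the 16020 genes that reached 0.1 FPKM in 3 or more libraries, using limma 3.58.1 in R 4.3.3 (empirical Bayes with trend) and Benjamini-Hochberg adjustment over all of them. Fold changes on this scale understate those of low genes. The code was tested on simulated data. Adjusted p values are from limma throughout. Replicate numbers were taken as pairing the libraries, because deviations from the group means correlated at 0.23, 0.64 and 0.51 for replicates 1, 2 and 3. Between shControl and shEphexin1 libraries of unlike numbers, deviations correlated at -0.57 to 0.15, so the pairing of replicate 1 is the weakest. Deviations cancel within a group, so these correlations are not independent of each other. Those at unlike numbers therefore give no separate support for the pairing. Named genes were, per structural group, the largest rise and fall, every called gene, the catalytic subunits and their counterparts, called pathway genes and NFE2L1. Other members and pathway genes were chosen after their values were seen. Members and lists were chosen with earlier results of these data known. Positions come from GENCODE on GRCh37, to which 23759 of 26253 names matched. Alternatives covered pseudocounts of 1 and 0.01, filters, normalizations, the replicate block, leaving out libraries, a GC and length correction and arm medians.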

Additional observations from a re-analysis of the deposited data

How the results depend on the processing

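No proteasome gene passed the rule with a 2-fold change under any alternative run. The median log2 fold change kept its sign in all of them. It was -0.099 after quantile normalization and -0.073 after rescaling to a common sum, each also with the replicate block, and leaving out 1 library gave -0.25 to -0.15. Counts are given with the share of all genes called in parentheses. The count at an adjusted p of at most 0.05, 3 as reported (7.01%), was 29 with the replicate block (33.5%), 24 with a term for replicate 2 libraries (29.2%), 16 with the GC and length correction (29%), 26 with that correction and the replicate block (35.1%), 12 with replicates 1 and 3 alone (17.3%), 1 without the trend (5.69%), 1 after rescaling to a common sum (6.73%) and 1 at an adjusted p of at most 0.025 (3.41%). Leaving out 1 library gave 0 to 3 (0.968% to 8.2%). With the replicate block it was 25 under median centring (33.9%), 16 under quantile normalization (31.6%), 10 under the common sum (36.1%), and 15, 26 and 20 without replicate 1, 2 and 3 (19.9%, 25.7% and 24.9%). The count of genes whose groups did not overlap, 12 as reported (28.3%), was 20 with the GC and length correction (44.1%), 35 with replicates 1 and 3 alone (61.8%), which has fewer values to overlap, 10 under quantile normalization (26.8%), 8 under the common sum (28.9%) and 13 to 25 with 1 library left out (32.2% to 47.2%). The cause of the other changes was not tested. Among the named genes, 555 values under alternatives counted as unchanged, 122 passed the threshold, 42 lost it and 10 moved. None that was called as reported reversed. Unchanged values stayed on their side of the threshold. Arm-subtracted values have no p-value, and counted as unchanged if they differed by less than 0.10, the SD of the library medians, and otherwise as moved. The common sum, the block under other scalings and the block without 1 replicate were chosen after seeing the data.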
